A study of Rattus norvegicus with 3 samples.

Results

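Cadherins and catenins build the adherens junction, the contact by which neighbouring cells hold each other and tie that contact to actin. A classical cadherin binds a cadherin of the next cell with its outer part, and its tail holds p120-catenin and either beta-catenin or plakoglobin, to which alpha-catenin links the actin cytoskeleton. Beta-catenin that is not held at the membrane is degraded unless Wnt signaling is active, when it enters the nucleus. Mesenchymal cells of the bone marrow and osteoblasts are known for N-cadherin and cadherin-11, whereas E-cadherin and P-cadherin are known from epithelia.

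The 9 genes were Cdh1, Cdh2, Cdh3, Cdh11, Cdh13, Ctnna1, Ctnnb1, Ctnnd1 and Jup. They were taken by name, as 5 cadherins and 4 catenins, with no threshold on a value, though earlier results of these data were known. Of 13301 rat genes named on the array, these 9 were read by 15 probes. Cdh13 stands apart from the label, since T-cadherin is anchored to the membrane by a lipid and has no tail for catenins.

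RNA was measured on 1 Cy3 array for each of 3 cell types, and the spread among cultures is therefore unknown and nothing was tested. COS1NR is an osteosarcoma line and MFH1NR a malignant fibrous histiocytoma line, both grown from tumors that 4-HAQO had induced in F344 rats and both described by the methods as carrying a p53 mutation. MSCs were freshly isolated from the femur bone marrow of F344 rats by their growth on plastic, were not sorted by surface markers, and were kept in a medium with more serum than that of the lines. Age, sex and the number of rats are not given in the sources used here, and each line is 1 cell line. COS1NR and MFH1NR were hybridized on the same slide, while MSCs were on a different one, and in comparisons with MSCs the slide and the cell type cannot be told apart.

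Intensities are those of the authors' image software, and ratios were taken after each array was divided by its own 75th percentile, which came to 589 for MSCs, 774 for COS1NR and 994 for MFH1NR. The software called between 56.6% and 59.7% of the spots of an array well above background. If 1 array of a pair lacked this call, the fold is a bound ("at least"): the bright array's scaled intensity was divided by whichever was higher on the dim array, the probe's own intensity or the lowest intensity with the call. Each gene stands by the probe with the highest mean of scaled log2 intensity over the arrays, called the brightest or first probe, and entered a comparison when 1 or both arrays had the call. Spots of probes printed 10 times varied with a median log2 SD of 0.07 on the MSC and COS1NR arrays and 0.08 on the MFH1NR array, a technical spread without that of cultures or labeling. The log2 ratios of 2 probes of a gene differed by a median of 0.28 for COS1NR over MSCs, 0.31 for MFH1NR over MSCs and 0.15 for MFH1NR over COS1NR (1891 genes).

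In MSCs, all 9 genes were well above background, against 59.7% of all spots of that array. In COS1NR and in MFH1NR, 5 of the 9 were, near the 56.6% and 58.2% of all spots, and they were not the same 5. COS1NR had N-cadherin (Cdh2) but not cadherin-11 (Cdh11) well above background, while MFH1NR had the reverse. In such bulk RNA, fewer cells of a type and less RNA per cell cannot be told apart. P-cadherin (Cdh3), alpha-catenin (Ctnna1), beta-catenin (Ctnnb1) and p120-catenin (Ctnnd1) were well above background on all 3 arrays. E-cadherin (Cdh1), T-cadherin (Cdh13) and plakoglobin (Jup) were so in MSCs only.

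**Figure D1:**
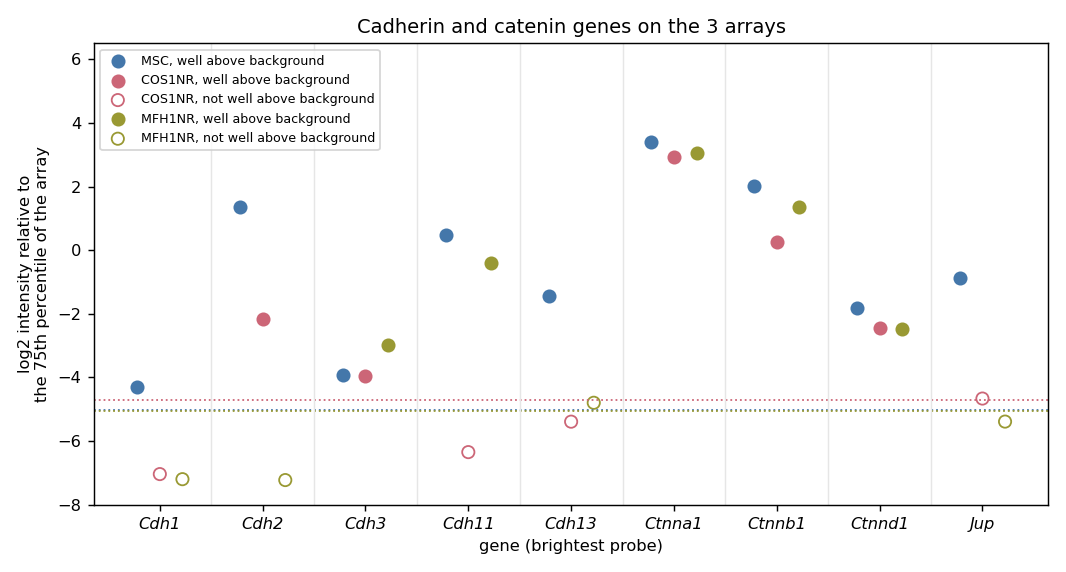
Scaled log2 intensity (y axis, relative to the 75th percentile of each array) of the brightest probe of the 9 genes (x axis) in MSCs, COS1NR and MFH1NR. Open circles were not well above background, and dotted lines mark the lowest intensity with that call on each array. Heights can be compared between arrays within a gene, not between genes. All 9 MSC points are filled, and the filled points of Cdh2 and Cdh11 belong to different sarcoma lines.

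N-cadherin is the classical cadherin of neural and mesenchymal cells. Its probe was printed 10 times on each array. In MSCs the 10 spots of Cdh2 had intensities from 1375 to 1605 with a median of 1528. In COS1NR they lay between 155 and 184 with a median of 176, and all 10 were well above background. In MFH1NR they lay between 6.05 and 10.02 with a median of 6.30, and 0 of 10 were well above background. The spots of the 3 arrays did not overlap. After scaling, the ratio of Cdh2 in COS1NR to MSCs was 0.0871, a log2 ratio of -3.52 with a spot SD of 0.10. Against MSCs, MFH1NR had at least 84.8-fold less Cdh2 signal, and against COS1NR at least 7.39-fold less. Normexp background correction was run with a constant added to every spot, which by itself shrinks differences of dim probes. With it, these bounds were 30.2-fold and 3.74-fold.

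Cadherin-11, or OB-cadherin, is the cadherin of osteoblasts and of many connective tissue cells. It was read by 4 probes, which had intensities in MSCs of 818, 482, 357 and 206, from the brightest to the dimmest. In MFH1NR the same probes of Cdh11 had 743, 356, 306 and 169.9. In COS1NR they had 9.48, 6.76, 5.89 and 7.55, and none of the 4 was well above background. By every probe, the osteosarcoma line was the array without a signal of the osteoblast cadherin well above background. The bound for Cdh11 in COS1NR against MSCs was at least 36.6-fold lower with the brightest probe, and with the others it went down to 9.21-fold. Against COS1NR, MFH1NR was at least 19.7-fold higher by the brightest probe and at least 4.50-fold higher by the dimmest. With normexp, the bounds of the brightest probe were 15.8-fold against MSCs and 8.41-fold between the lines.

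The ratio of Cdh11 in MFH1NR to MSCs was 0.538 by the brightest probe and 0.438, 0.508 and 0.489 by the others. The probes lay on both sides of 2-fold, with log2 ratios between -1.19 and -0.89, a range of about the usual difference between probes of the same gene. Without scaling, the brightest probe had a log2 ratio of -0.14, so the difference of MFH1NR from MSCs rests on the scaling.

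**Figure D2:**
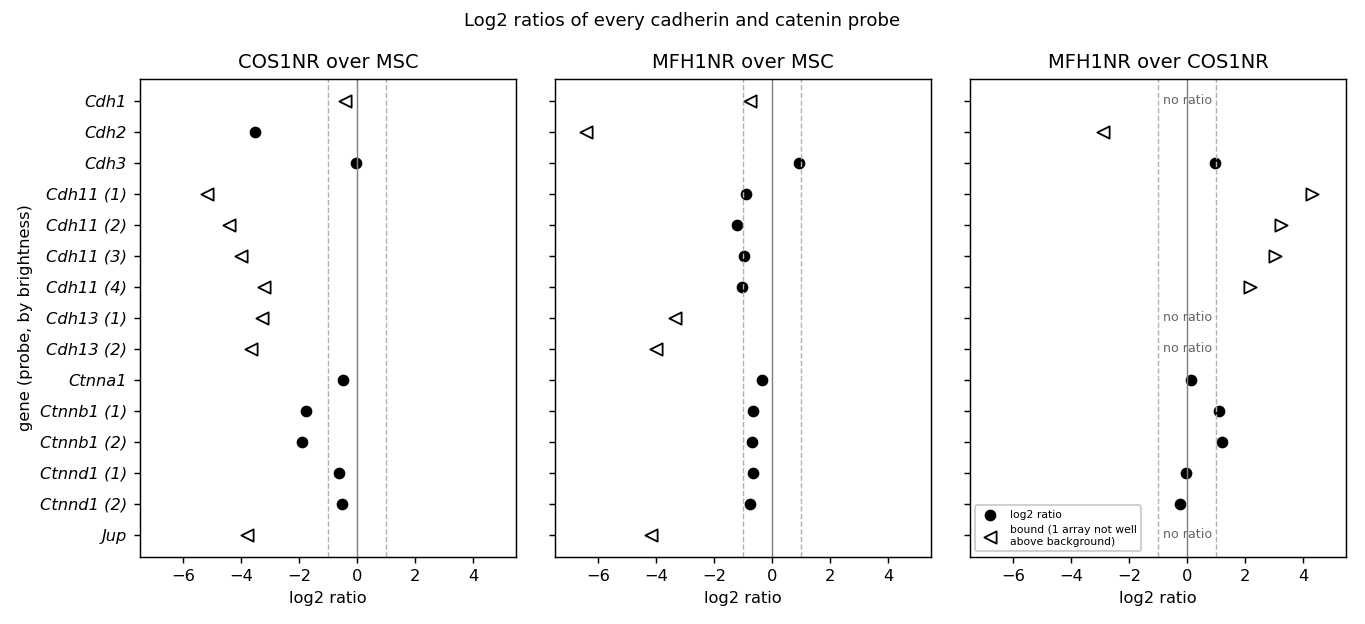
Log2 ratios (x axis) of all 15 probes of the 9 genes (y axis, probes of a gene numbered from the brightest) for COS1NR over MSC, MFH1NR over MSC and MFH1NR over COS1NR, after scaling to the 75th percentile. Triangles are bounds where 1 array was not well above background and point towards larger differences, dashed lines mark 2-fold, and "no ratio" marks probes dim on both arrays. The 4 probes of Cdh11 lie at bounds between -5.19 and -3.20 in COS1NR and between -1.19 and -0.89 in MFH1NR.

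T-cadherin, which is expressed in vessel walls and muscle and binds adiponectin, was measured by 2 probes. In MSCs these probes of Cdh13 had intensities of 218 and 285. In COS1NR they had 18.4 and 6.31, and in MFH1NR 35.7 and 6.34, and neither probe was well above background in either line. With the first probe, the bound of Cdh13 against MSCs was at least 9.73-fold lower for COS1NR and 10.3-fold for MFH1NR, and with the second at least 12.8-fold and 16.0-fold. With normexp, the bounds of the first probe were 4.65-fold and 4.87-fold. No ratio between the lines can be given.

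E-cadherin, the cadherin that holds epithelial sheets together, was near the limit of the arrays. Its only probe had an intensity of 30.1 in MSCs, where the lowest intensity well above background was 17.9, and of 5.88 in COS1NR and 6.76 in MFH1NR, both not well above background. The bound on its difference from MSCs was 1.34-fold in COS1NR and 1.69-fold in MFH1NR. Cdh1 therefore did not pass 2-fold in either comparison, and a larger difference was not measurable at this signal over background.

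P-cadherin, known from basal epithelia and placenta, was dim on every array but well above background on each. The Cdh3 probe read 38.6 for MSCs, 49.7 for COS1NR and 125.5 for MFH1NR. Its ratio to MSCs was 0.980 in COS1NR and 1.93 in MFH1NR, and its ratio in MFH1NR to COS1NR was 1.97. MFH1NR was the highest of the 3 arrays, and COS1NR and MSCs differed by a log2 ratio of -0.03, smaller than what probes of the same gene usually differ by. The log2 ratio of Cdh3 in MFH1NR to MSCs, 0.95, passed 2-fold with no scaling (1.70), median scaling (1.16), quantile normalization (1.06) and spike-in scaling (1.54). It fell to 0.30 with normexp, whose added constant shrinks differences of dim probes. Its small difference in COS1NR turned positive without scaling, with median scaling and with quantile normalization.

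Among the catenins, alpha-catenin is the link to actin. Ctnna1 read 6184 for MSCs, 5857 for COS1NR and 8198 for MFH1NR. The ratios to MSCs were 0.721 and 0.785. The order of the 2 sarcoma lines could not be told, since they differed by a log2 ratio of 0.12, smaller than the usual difference between such probes. Unscaled, Ctnna1 in MFH1NR turned to a log2 ratio of 0.41, and with spike-in scaling to 0.25.

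Beta-catenin binds the cadherin tail and also serves as the coactivator of Wnt signaling. Its brighter probe read 2395 for MSCs, 922 for COS1NR and 2539 for MFH1NR. The other probe of Ctnnb1 was printed 10 times and had spots from 202 to 222 in MSCs, from 70.3 to 87.3 in COS1NR, where 9 spots were kept, and from 209.8 to 229 in MFH1NR. The spots of COS1NR lay below all those of the other arrays. The log2 ratio of COS1NR to MSCs was -1.77 by the brighter probe and -1.89, with a spot SD of 0.10, by the other. That of MFH1NR to MSCs was -0.67 and -0.70, under 2-fold, and 0.08 by the brighter probe unscaled, so its sign rests on the scaling. MFH1NR had 2.14 times the scaled intensity of COS1NR by the brighter probe and 2.28 times by the other. This difference lay within 1 slide and was larger than the usual difference between probes of 1 gene.

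Since a single factor per array cancels in a difference between the ratios of 2 genes, beta-catenin was also set against alpha-catenin. Quantile normalization and normexp are no such factor and can change the difference. Relative to Ctnna1, Ctnnb1 was 2.46-fold lower in COS1NR than in MSCs, a difference in log2 ratio of -1.30, and 1.25-fold lower in MFH1NR. By the same measure, Ctnnd1 differed by 1.12-fold in COS1NR and 1.24-fold in MFH1NR, and Cdh3 was 2.45-fold higher in MFH1NR. With normexp the log2 ratios to MSCs lay closer together, at -1.55 for Ctnnb1 and -0.66 for Ctnna1 in COS1NR. In MFH1NR they were then 0.30 for Cdh3 and -0.54 for Ctnna1. The lower level in COS1NR was thus unequal among the catenins.

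p120-catenin holds cadherins at the cell surface. The brighter of 2 probes of Ctnnd1 read 167 for MSCs, 141 for COS1NR and 178 for MFH1NR, while the dimmer read 78.6, 72.6 and 78.1. The ratios to MSCs were 0.645 and 0.703 in COS1NR and 0.633 and 0.589 in MFH1NR. No pair of arrays differed by 2-fold. Between the lines, the log2 ratios of -0.03 and -0.26 lay on both sides of the median difference between probes.

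**Figure D3:**
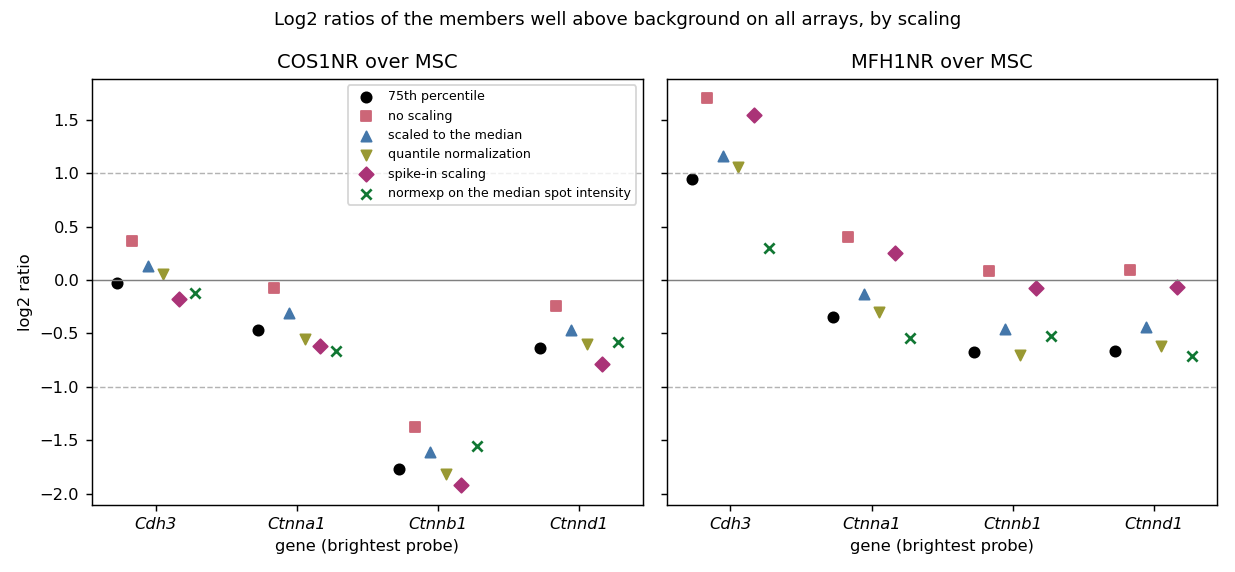
Log2 ratios to MSC (y axis) of the 4 genes well above background on all arrays (x axis) in COS1NR and MFH1NR, under the scaling used and 5 other settings. Dashed lines mark 2-fold. In COS1NR, Ctnnb1 lies below -1 under each setting shown, while in MFH1NR the 3 catenins lie between -1 and 1 and turn positive without scaling.

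Plakoglobin is the close relative of beta-catenin that serves in both adherens junctions and desmosomes. Jup read 319.9 for MSCs, 30.5 for COS1NR and 23.7 for MFH1NR, and neither line was well above background. The bound against MSCs was at least 13.8-fold lower for COS1NR and 18.0-fold lower for MFH1NR, and with normexp 4.53-fold and 5.996-fold. Both beta-catenin and p120-catenin remained measurable in the lines where plakoglobin did not.

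Of the 9 genes, 3 had a promoter in the RefSeq table of the GRCr8 build, namely Jup, Ctnnb1 and Ctnnd1. The 250 bases before the listed start of Jup (chr10:85827430-85827679, minus strand) are shown since plakoglobin was the catenin not well above background in either line. Capitals mark CAGGTG, the E-box bound by factors such as Snail and ZEB, and GGGCGG, the core of the Sp1 site. The annotated gene reaches further upstream than this start, so the window lies inside the gene and other transcripts may start elsewhere. Both strands were searched, and the marked runs do not overlap.
Jup: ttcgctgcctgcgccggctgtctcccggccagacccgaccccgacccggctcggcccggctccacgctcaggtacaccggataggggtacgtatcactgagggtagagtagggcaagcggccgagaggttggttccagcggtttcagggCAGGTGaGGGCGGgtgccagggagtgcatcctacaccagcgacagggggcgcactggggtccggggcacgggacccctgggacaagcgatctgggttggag
The window had a GC share of 68.8% and 21 CpG, against a median of 51.2% and 5 over the windows of all 33469 listed promoters. CAGGTG was found in 15.9% and GGGCGG in 30.5% of these windows. The window of Ctnnb1 also lay inside its annotated gene, and that of Ctnnd1 in part. These windows held neither motif, and CTTTGAT, a motif of TCF and LEF factors held by 3.15% of windows, was in none of the 3. A match is a run of letters and no evidence of binding.

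At least 2-fold lower in COS1NR than in MSCs were 5 of the 9 genes, Cdh2, Cdh11, Cdh13, Ctnnb1 and Jup, against 20.0% of all 9710 genes measured in that pair (40.6% were apart in either direction). In MFH1NR, 3 were lower, Cdh2, Cdh13 and Jup, against 21.6% of 9823 genes (41.0% in either direction). None of the 9 was higher in either line by as much, against 20.7% of genes in COS1NR and 19.4% in MFH1NR. The exception was Cdh3 in MFH1NR, which was higher without scaling and with median, quantile and spike-in scaling. Under these settings, in that order, 41.4%, 24.6%, 20.7% and 36.3% of all genes were higher in MFH1NR. The median log2 ratio of the 9 genes was -1.77 for COS1NR and -0.76 for MFH1NR with dim genes at their bound, and -2.75 and -0.89 from measured values. The MFH1NR median rested on the scaling, since from measured values it was -0.14 unscaled and -0.30 with spike-in scaling. Over all genes, the median with bounds was 0.11 and 0.02. Lower in both lines were 3 of the 9, against 12.9% of 10010 genes, and both comparisons use the same MSC array. The counts describe 9 genes that were picked by name and single arrays, and they are no test.

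Between the lines, 6 of the 9 genes could be compared, and 3 differed by 2-fold or more, against 27.5% of 9422 genes. Cdh2 was lower in MFH1NR (15.1% of all genes were), and Cdh11 and Ctnnb1 were higher (12.4%). This pair shared a slide, and these 3 kept their direction under every alternative that gave them a value. All probes of these 3 genes gave that direction. Cdh3, at 1.97-fold, passed 2-fold as well without scaling and with median, quantile and spike-in scaling, which made 4 of 6.

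**Figure D4:**
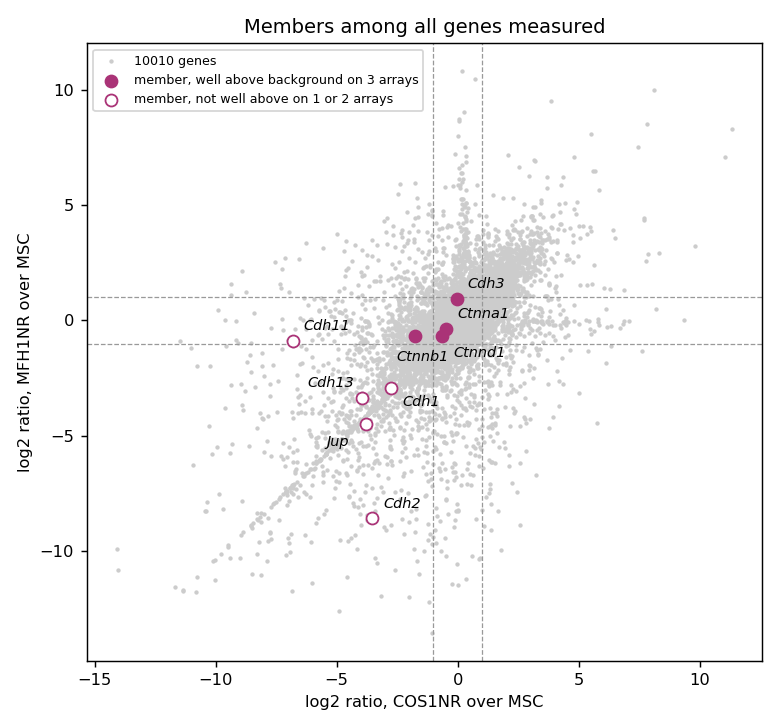
Log2 ratio of COS1NR over MSC (x axis) against that of MFH1NR over MSC (y axis) for 10010 genes (grey) and the 9 members, by measured intensities scaled to the 75th percentile. Both axes share the MSC array. Open circles were not well above background on 1 or 2 arrays, so their position is no exact ratio, and dashed lines mark 2-fold. Cdh2 lies far below the diagonal, Cdh11 far to the left, and Ctnna1 and Ctnnd1 lie near the center.

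For the 4 genes with a ratio in both lines, the genes of most similar ratios were sought by distance in the 2 log2 ratios to MSCs among 7931 other genes. Nearest to Cdh3 were Cep76, Tinf2 and Btg3, and nearest to Ctnnb1 were Pdlim4, Slco3a1 and Epdr1. Nearest to Ctnna1 were Rcn2, Bud31 and Btd, and nearest to Ctnnd1 were Etv6, Fbxw17 and Selenow. Within a distance of 0.25 lay 77 genes for Cdh3, 31 for Ctnnb1, 277 for Ctnna1 and 194 for Ctnnd1. With 3 arrays, such a likeness is shared by many genes.

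The cultures were checked for other cell types. All 12 mesenchymal markers were well above background in MSCs, while Thy1, Eng and Postn were not in COS1NR, nor Eng and Postn in MFH1NR. Of these 12, 11 were at least 2-fold lower in COS1NR and 9 in MFH1NR, with median log2 ratios of -3.98 and -2.37, and the same 9 were lower in both lines (8 without scaling). Of all genes, 20.0% were lower in COS1NR, 21.6% in MFH1NR and 12.9% in both. Among the 9 markers lower in both lines, Postn, Col3a1, Eng and Pdgfrb had the largest mean difference, with dim genes at their bound. All 16 macrophage markers were also well above background in MSCs. Their summed intensity, in units of the 75th percentile, amounted to 201 for MSCs, 13.1 for COS1NR and 5.38 for MFH1NR. All 16 were at least 2-fold lower in both lines (14 without scaling). With dim genes at their bound, the mean difference was largest for Lyz2, Tyrobp, C1qa and Mrc1. In COS1NR, 7 of the 16 were not well above background, and 8 in MFH1NR. Both the mesenchymal and the macrophage markers moved in the same direction as Cdh2, Cdh13 and Jup between MSCs and the lines, and their part in those differences was not tested.

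Of 14 epithelial markers named, 6 were well above background in MSCs and 5 in each line, and among others Epcam, Krt19, Esrp1 and Grhl2 were so on no array. Krt8 and Krt18, the keratins of simple epithelia, had intensities of 268 and 322 in MSCs and, like plakoglobin and E-cadherin, were not well above background in the lines. The bounds were at least 12.0-fold and 14.4-fold lower for COS1NR, and at least 15.1-fold and 18.1-fold lower for MFH1NR. The other epithelial markers measured did not share this direction. Cldn4, a tight junction claudin, was higher in both lines, 2.84-fold for COS1NR and 2.33-fold for MFH1NR. The splicing factor Esrp2 had ratios of 2.15 and 1.89. Krt5, Krt14 and Cldn3 were under 2-fold, all with ratios above 1. Over the 7 measured, the median log2 ratio was 0.66 in COS1NR and 0.41 in MFH1NR. Unscaled, Krt5, Cldn3, Cldn4 and Esrp2 were higher in both lines and the MFH1NR median was 1.16, and with spike-in scaling 4 were higher in MFH1NR. These settings raise all genes, of which 32.5% were higher in COS1NR and 41.4% in MFH1NR unscaled, with an MFH1NR median of 0.77. With spike-in scaling, 36.3% of all genes were higher in MFH1NR. Of 8 endothelial markers named, 4 had this call in MSCs, 2 in COS1NR and 1 in MFH1NR, while Pecam1, Tek, Emcn and Cldn5 were so on no array. Esam, Kdr and Tie1 were at least 2-fold lower in both lines under each scaling tried, and Kdr, the VEGF receptor, had log2 ratios of -2.35 and -2.68. Over the whole array, 12.9% of genes were lower and 10.8% higher in both lines. VE-cadherin (Cdh5), the fourth measured, had 26.0 in MSCs and 48.3 in COS1NR, and with 22.6 MFH1NR was not well above background. The part of these cells in the results was not tested.

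Of 7 measured factors known to repress Cdh1, Snai1 was lower in both lines, with a log2 ratio of -2.34 for COS1NR and -3.13 for MFH1NR. In all, 2 were lower and 2 higher in COS1NR, and 2 were lower and 3 higher in MFH1NR, of which 1 was lower without scaling and with median or spike-in scaling. Twist1 was higher in both, with 1.79 and 1.34, and so was Twist2, with 1.09 and 1.81, of which Twist2 in COS1NR was under 2-fold with spike-in scaling. Snai2 went in opposite directions, reading 152 for MSCs, 30.5 for COS1NR and 1424 for MFH1NR, with log2 ratios of -2.71 and 2.47. Of all genes, 20.0% were lower and 20.7% higher in COS1NR, 21.6% and 19.4% in MFH1NR, and 12.9% and 10.8% in both lines.

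Of 15 other classical cadherins listed, 9 had a named probe. Of these 9, 5 (Cdh6, Cdh7, Cdh8, Cdh9 and Cdh19) were not well above background on any array. Cdh22 read 529 for MSCs, 437 for COS1NR and 351 for MFH1NR, with log2 ratios of -0.67 and -1.35. Cdh15, the cadherin of muscle precursors, was the only one of the list lower in both lines, at an intensity of 47.3 in MSCs, and with each other scaling tried at least 1 line was under 2-fold. Of the 3 measured in COS1NR and the 4 in MFH1NR, 0 were at least 2-fold higher than in MSCs, while without scaling and with spike-in scaling 1 was higher and 0 were lower in MFH1NR. Of all genes, 20.7% were higher in COS1NR and 19.4% in MFH1NR, and with so few cadherins a count of 0 is near that.

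Of 4 other genes measured that carry a catenin name or are relatives (Ctnnal1, Ctnnbl1, Arvcf and Pkp2), 0 were lower in either line. In COS1NR 1 was higher, and in MFH1NR 2 were (3 without scaling or with spike-in scaling). With 4 genes, the COS1NR counts are near the shares over all genes, 20.0% lower and 20.7% higher. In MFH1NR the shares were 21.6% and 19.4%, and a count over 4 genes is imprecise. The share higher in MFH1NR was 41.4% unscaled and 36.3% with spike-in scaling. Plakophilin 2 (Pkp2), a desmosomal partner of plakoglobin, was higher in both lines, reading 34.1 for MSCs, 857 for COS1NR and 226 for MFH1NR, with log2 ratios of 4.26 and 1.97. Arvcf, a relative of p120-catenin, was higher in MFH1NR only at the 2-fold threshold, with 0.16 in COS1NR and 1.28 in MFH1NR. Of the desmosomal genes, Ppl and Evpl, which join junctions to keratin, were the 2 measured. Evpl was lower in both lines, at least 3.92-fold in COS1NR and with a log2 ratio of -2.13 in MFH1NR. Ppl, with 0.55 in COS1NR, was not well above background in MFH1NR, at least 6.36-fold below MSCs.

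**Figure D5:**
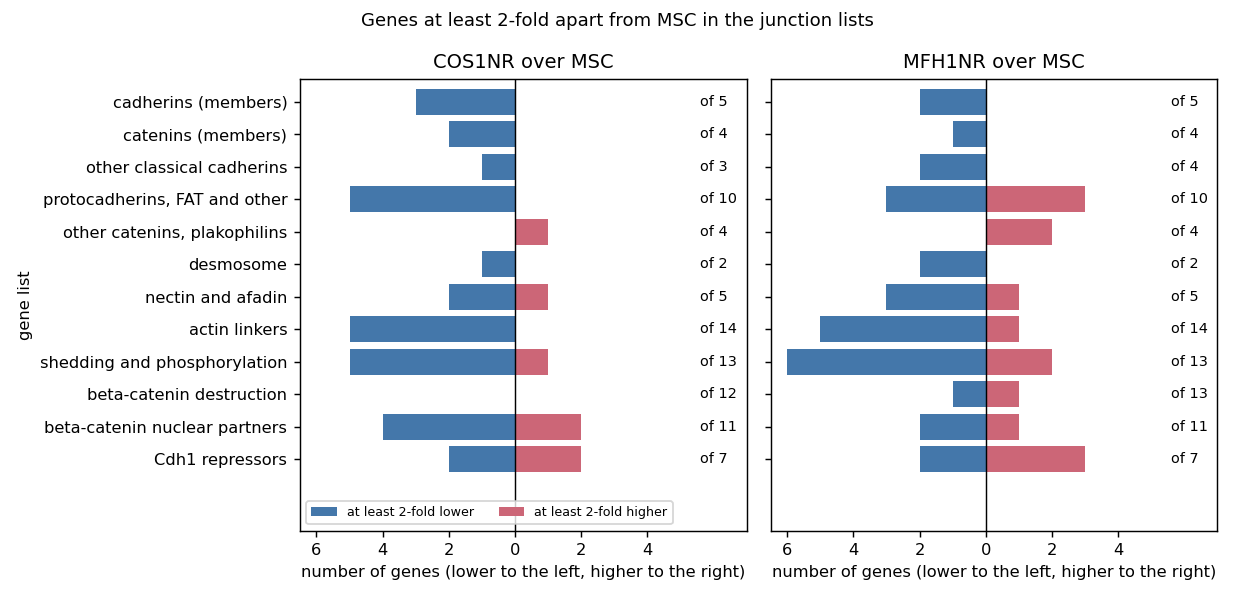
Number of genes (x axis) at least 2-fold lower (left, blue) or higher (right, red) than in MSC in COS1NR and MFH1NR for each list of junction genes (y axis), with the number of genes measured at the right of each bar, scaled to the 75th percentile. In COS1NR, 5 of 14 actin linkers are lower and none is higher, and in the beta-catenin destruction list none of 12 differs by 2-fold.

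Genes that link the junction to actin were counted next. Of 14 measured, 5 were lower in each line, 0 were higher in COS1NR and 1 in MFH1NR. The MFH1NR count rested on the scaling, with 1 lower and 2 higher unscaled and 2 lower and 1 higher with spike-in scaling. Of all genes, 20.0% were lower and 20.7% higher in COS1NR, and 21.6% and 19.4% in MFH1NR. Vinculin (Vcl), recruited by alpha-catenin under tension, had log2 ratios of -2.50 in COS1NR and -1.72 in MFH1NR. Vasp, which extends actin filaments, had -2.10 and -1.95, and alpha-actinin-1 (Actn1), which bundles them, -1.53 and -1.51. These 3 were the ones lower in both lines, and without scaling Vasp alone was. Ajuba, a LIM protein of the junction, was higher in MFH1NR, with a log2 ratio of 2.46. Of nectin and afadin genes, 5 were measured against MSCs in each line, though not the same 5. In COS1NR 2 were lower and 1 higher, and in MFH1NR 3 lower and 1 higher. Unscaled, COS1NR had 1 lower and 2 higher. Lmo7, which links nectins to alpha-actinin, had -2.78 and -2.43, and Nectin2 -1.10 and -2.56, under 2-fold in COS1NR without scaling and with median scaling. Afadin (Afdn), the actin linker of nectins, had -0.25 in COS1NR and -2.77 in MFH1NR.

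Of enzymes that cut, phosphorylate or dephosphorylate cadherins and catenins, 5 of 13 were lower and 1 was higher in COS1NR, and 6 were lower and 2 higher in MFH1NR. This balance was lost in MFH1NR without scaling, with 3 lower and 4 higher, and with spike-in scaling, with 3 each way, and in COS1NR 3 were lower and 2 higher unscaled. The shares over all genes were 20.0% and 20.7% in COS1NR and 21.6% and 19.4% in MFH1NR. The receptor phosphatase Ptprf had log2 ratios of -1.39 and -5.72, and the kinase Fyn -2.27 and -3.26. Ptprk, a phosphatase that binds beta-catenin, had -0.87 in COS1NR, and its bound for MFH1NR was at least 84.5-fold lower. The protease Adam15 had -1.58 and -1.56. Without scaling, Ptprf and Adam15 were each under 2-fold in 1 line. Cbll1, or Hakai, a ubiquitin ligase that marks E-cadherin for uptake, was higher in both lines with 1.73 and 1.30. Mmp3, a stromelysin that can cut E-cadherin, had -0.79 in COS1NR and 3.96 in MFH1NR.

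Of the genes that degrade beta-catenin, 12 were measured in COS1NR and 13 in MFH1NR. Of 12 measured in COS1NR, 0 were 2-fold apart from MSCs, and of 13 in MFH1NR, 1 was lower (Csnk1e, -1.48) and 1 higher (Axin2, 1.74). Of all genes, 40.6% were apart in COS1NR and 41.0% in MFH1NR. Unscaled, MFH1NR had 0 lower and 3 higher, and with spike-in scaling 0 lower and 2 higher. Apc, Axin1 and Gsk3b, which form the core of the destruction complex, had log2 ratios of -0.02, 0.03 and -0.09 for COS1NR, and -0.41, -0.22 and -0.24 for MFH1NR. Axin2, also a known target of beta-catenin, read 22.7 for MSCs, 16.1 for COS1NR, not well above background, and 128 for MFH1NR. MFH1NR was at least 3.39-fold above COS1NR.

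Of 11 nuclear partners of beta-catenin, 4 were lower and 2 higher in COS1NR, and 2 lower and 1 higher in MFH1NR. In MFH1NR the balance turned without scaling, with 2 lower and 6 higher, and with spike-in scaling, with 2 lower and 4 higher. All genes shifted too, with 13.0% lower and 41.4% higher in MFH1NR unscaled, and 14.3% and 36.3% with spike-in scaling. In COS1NR, 3 were lower unscaled, when Tle3 was under 2-fold. Against all genes, of which 20.0% were lower and 20.7% higher in COS1NR and 21.6% and 19.4% in MFH1NR, the 2 higher in COS1NR and the 2 lower in MFH1NR are near the background. Lef1 and Tle4 were lower and Bcl9 was higher in both lines. Bcl9, which bridges beta-catenin to Pygopus, had log2 ratios of 2.26 and 1.30. Tle2 and Tle3, corepressors that beta-catenin displaces, were lower in COS1NR, with -2.37 and -1.36, but not in MFH1NR, with -0.42 and 0.77. Between the lines, Tle2 and Tle3 differed by 1.95 and 2.13, both higher in MFH1NR.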

How the data were processed

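Cy3-labeled cRNA of MSCs, COS1NR and MFH1NR was hybridized to a whole-genome Agilent array, 1 for each cell type. The deposited intensities came, per the file headers, from the authors' run of Feature Extraction 10.5.1.1 (the submitters' processing notes name 9.1), which subtracted background, detrended within the array and did not scale between arrays. The deposited series table held the same intensities. The array design was annotated on an earlier build than the gene table (GRCr8), so no coordinates are given for probes, and those of the promoter window are from GRCr8. Control and outlier spots were left out (187 to 217 outliers per array), spots of a probe were averaged in log2, and 16745 of 40816 probes were named through RefSeq accessions. No test was made with 1 array per group, and the number of arrays limits the precision. Alternatives were other scalings, background corrections, probe rules, filters and thresholds. The counting was tested on simulated data. Members and gene lists were chosen with earlier results of these data known. Named were the 9 members by every probe, and of each list genes at least 2-fold apart in both lines, up to 4 each way. Their order was by mean log2 ratio, with dim genes at their bound. All other genes of the lists and markers that are named, such as Snai2, Ajuba, Ptprk, Cdh22, Tle2 and Axin1, were chosen after their values were seen. For likeness, the 3 nearest genes are named. Python 3.11.15, numpy 2.4.6, pandas 2.3.3, matplotlib 3.10.9 and, for normexp, R 4.3.3 with limma 3.58.1 were used.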

Additional observations from a re-analysis of the deposited data

How the results depend on the processing

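With only genes well above background on both arrays of a pair, which leaves out every bound by construction, the count of members at least 2-fold apart went from 5 to 2 for COS1NR over MSCs, from 3 to 0 for MFH1NR over MSCs and from 3 to 1 for MFH1NR over COS1NR. The other 30 of 33 recomputed counts were within 1.5 times. Of 257 recomputed ratios of single members, none that was called turned its direction, 185 moved by less than the median difference between probes and 72 moved by more. Cdh2, Cdh13 and Jup were at least 2-fold lower in both lines under each scaling tried, but the bounds of Cdh2, Cdh11, Cdh13 and Jup shrank by over 1.5 times with normexp, to 30.2-fold for Cdh2 in MFH1NR and to 4.53-fold for Jup in COS1NR. Normexp was run with a constant added to every spot, so part of this shrinkage was fixed in advance. Without scaling, the median log2 ratio of all genes was 0.49 for COS1NR over MSCs, 0.77 for MFH1NR over MSCs and 0.28 for MFH1NR over COS1NR, and with spike-in scaling -0.05, 0.61 and 0.66. Both settings shift every gene of a pair alike. Without scaling, 14.8% of genes were lower and 32.5% higher in COS1NR, and 13.0% and 41.4% in MFH1NR. With spike-in scaling, 14.3% and 36.3% were so in MFH1NR over MSCs, and 7.30% and 32.9% in MFH1NR over COS1NR. Normexp was not run on the mean spot intensity and used the median in its place, and this, spike-in scaling and the second probe were chosen after the data were seen. No paired analysis was possible because each group has 1 array. Signal over background leaves Cdh1, Cdh13 and Jup without a ratio between the lines.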

Other observations

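Protocadherins and related large cadherins are known to adhere weakly and to act in tissue patterning. Of 9 measured in the pair of lines, 3 were at least 2-fold lower and 4 higher in MFH1NR than in COS1NR, against 15.1% and 12.4% of all genes. Of 10 atypical cadherins measured, 5 were at least 2-fold lower and 0 higher than in MSCs in COS1NR, and 3 were lower and 3 higher in MFH1NR (in COS1NR 4 were lower unscaled). The shares over all genes were 20.0% and 20.7% in COS1NR and 21.6% and 19.4% in MFH1NR. Pcdh19 had an intensity of 3825 in MSCs, 6650 in MFH1NR and 6.39, not well above background, in COS1NR, so it was at least 176-fold higher in MFH1NR than in COS1NR. Dchs1, the ligand of FAT4 in planar polarity, had 1927, 8615 and 16.2 in the same order and was at least 228-fold higher in MFH1NR. Pcdh18 was well above background in MFH1NR, at 621, and in MSCs, at 25.9. Pcdh7 went the other way, with 330 in MSCs, 565 in COS1NR and 6.37 in MFH1NR, where it was not well above background and at least 24.1-fold below COS1NR. Like Cdh11, Pcdh19 and Dchs1 were not well above background in COS1NR alone, and Pcdh7 was, like Cdh2, measured in COS1NR and not in MFH1NR.

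Fat1 and Fat3, giant cadherins that restrain growth and guide migration, were lower in both lines, with log2 ratios to MSCs of -1.72 and -4.31 for Fat1, COS1NR first, and -2.33 and -4.16 for Fat3. Their direction and their side of 2-fold were the same under each scaling tried. Pcdh7, Pcdh18, Pcdh19 and Dchs1 were chosen after their values were seen.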
